A study of Mus musculus with 18 samples.

Results

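The cytosolic ribosomal protein genes of the mouse hippocampus were examined in wild-type (WT) mice and in mice lacking *Ccny* (KO), which encodes Cyclin Y. Members were taken by name from the table of expressed genes: a symbol starting with Rpl or Rps followed by a number, with an optional letter and number after it, together with *Rplp0*, *Rplp1*, *Rplp2* and *Rpsa*. The Rps6k kinases and names marked as pseudogenes were left out. The rule itself used no measured value, but it was chosen with earlier results of these data known. The rule gave 79 of the 15329 genes listed: 31 of the small subunit, 44 of the large subunit and 4 paralogs of these, *Rpl7l1*, *Rpl22l1*, *Rps4l* and *Rps27l*. Of the 79 canonical ribosomal proteins, *Rpl26* and *Rpl30* had no row here, and *Fau*, which encodes a ribosomal protein fused to a ubiquitin-like protein, has a name that the rule does not match.

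Hippocampal mRNA was sequenced from 18 C57BL/6J mice aged 8 to 10 weeks, 3 in each of 6 groups. WT_Basal and KO_Basal mice had no maze training, WT_OL and KO_OL mice had learned the original platform location in the Morris water maze (original learning, OL), and WT_RL and KO_RL mice had then learned a new location (reversal learning, RL). Each library came from the hippocampus of 1 mouse. The labels name no tissue or Cre driver for the KO, and how the allele was made is not given in the sources used here. In bulk tissue, fewer cells of a type and less RNA per cell cannot be told apart.

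A ribosome has a small subunit, which reads the mRNA, and a large subunit, which joins amino acids, and each is built of ribosomal RNA and many proteins that are needed in equal numbers. The mRNAs of vertebrate ribosomal proteins usually begin with a C followed by a run of pyrimidines, the 5′ terminal oligopyrimidine (TOP) tract, through which the kinase complex mTORC1 and the protein LARP1 control their translation together. Neurons also hold ribosomal protein mRNAs in dendrites and axons, and long-term memory needs new protein synthesis.

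Sequence around the annotated start site was available in RefSeq (GRCm38.p6) for 59 of the 79 genes. The windows below run from 30 bases before the start to 20 bases after it, 5′ to 3′ on the gene's strand. The genes with the 5 longest tracts at the start itself are shown first, with the tract in capitals, because the tract is what these mRNAs are known for.

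Rpl15, chr14:18270967-18271016, minus strand: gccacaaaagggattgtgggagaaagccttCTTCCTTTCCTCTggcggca
Rpl35, chr2:39005112-39005161, minus strand: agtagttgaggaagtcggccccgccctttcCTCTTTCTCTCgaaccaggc
Rps10, chr17:27635225-27635274, minus strand: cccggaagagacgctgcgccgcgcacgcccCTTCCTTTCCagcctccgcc
Rps6, chr4:86857348-86857397, minus strand: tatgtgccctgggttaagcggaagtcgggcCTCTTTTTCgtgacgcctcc
Rps18, chr17:33955646-33955695, minus strand: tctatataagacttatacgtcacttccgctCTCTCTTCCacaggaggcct

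The next 4 are among the members called lower in both KO training comparisons. No such tract began at their annotated start, but *Rpl22l1* and *Rps24* had a run of at least 8 pyrimidines near it.

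Rpl22, chr4:152325696-152325745, plus strand: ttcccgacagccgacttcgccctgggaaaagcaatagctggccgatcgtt
Rpl22l1, chr3:28805478-28805527, plus strand: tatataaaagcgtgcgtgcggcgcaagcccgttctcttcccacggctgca
Rpl11, chr4:136053374-136053423, minus strand: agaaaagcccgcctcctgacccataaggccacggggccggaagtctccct
Rps24, chr14:24490648-24490697, plus strand: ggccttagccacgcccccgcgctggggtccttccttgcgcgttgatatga

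A tract of at least 5 pyrimidines beginning with C lay at the annotated start of 13 of the 59 genes (22%), against 3.01% of the 27025 genes with a RefSeq start. A run of at least 8 pyrimidines beginning with C, anywhere from 10 bases before to 20 bases after the start, was found in 24 (40.7%), against 10.1%. In the 300-base promoter, from 250 before to 50 after the start, the ETS-family letters CCGGAAG, read on both strands, were in 24 (40.7%) against 9.93%, and the YY1 letters AAGATGGC in 6 (10.2%) against 3.19%. The SP1 letters GGGCGG were in 38 (64.4%) against 38.2%, and TATAAA in 7 (11.9%) against 15.7%. These are matches of letters in a window and not tests of binding.

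The libraries held 29248557 to 31509208 gene-assigned reads in untrained mice and 31830344 to 37915576 in trained mice, so that depth and training cannot be told apart. By the paper's mapping statistics, the third WT_OL library and all KO_OL, WT_RL and KO_RL libraries mapped at higher rates than all others. In KO mice, and in WT_RL against WT_Basal, mapping rate and training thus cannot be told apart either. The part of mapping rate in the comparisons was not tested. Replicates of a group were different libraries: the chi-square per gene between them was 8.77 to 104, where sampling noise alone gives about 1. The targeted gene, *Ccny*, was at 158, 149.6 and 158 CPM (read counts scaled to about 1000000 per library) in WT_Basal and at 95.8, 90.5 and 89.6 CPM in KO_Basal, a log2 difference of -0.75 (limma, adjusted p = 0.0121). It was lower in all 9 KO than in all 9 WT libraries, with reads left in each KO library. All 12 hippocampal neuron markers checked were listed, at a summed 689 to 1182 CPM.

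The members together took 1.19% to 2.17% of the reads. Apart from *Rps27* and *Rpl34*, which are taken up below, their mean levels lay between 11.6 and 568 CPM, with *Rpl3*, a core protein of the large subunit, highest. The median of these means was 186 CPM for small-subunit genes, 174 CPM for large-subunit genes and 39.3 CPM for the paralogs. Per kilobase of the longest principal transcript, *Rplp1*, a protein of the stalk that recruits elongation factors, was the highest at 1019 CPM per kilobase. *Rps29*, *Rps15*, *Rpl9* and *Rps14* followed at 713, 697, 516 and 425 CPM per kilobase. The 5 lowest were *Rpl34* at 0.893, *Rps27* at 1.5, *Rpl7l1* at 20.5, *Rps27l* at 23.3 and *Rps4l* at 26.8 CPM per kilobase. This order depends on the transcript chosen to stand for each gene.

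*Rps27* and *Rpl34* had 7 to 25 and 8 to 28 reads in a library, under 1 CPM throughout, although both encode core proteins of the ribosome. Of the 100-base windows of the *Rps27* transcript, 98.4% also occurred in another annotated transcript, and of *Rpl34* 22.5%. These levels are uncertain, since the counting may leave out reads that match several places, and the part of such reads was not tested. In all, 30 members shared more than 50% of their windows with another gene, and 5 members, *Rpl22* and *Rps27l* among them, shared none.

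The summed level of the 79 genes differed more between mice of some groups than between groups. It was 15491, 15837 and 15448 CPM in WT_Basal and 17815, 18227 and 15626 CPM in KO_Basal. After original learning it was 16142, 20526 and 12707 CPM in WT_OL and 14257, 14170 and 13933 CPM in KO_OL. After reversal learning it was 13915, 17172 and 13116 CPM in WT_RL and 14240, 12253 and 13923 CPM in KO_RL. All 3 KO_OL and all 3 KO_RL mice lay below all 3 KO_Basal mice, whereas the WT_OL and WT_RL mice lay on both sides of the WT_Basal mice. The means were 17222 ± 1398 CPM (SD, n = 3) for KO_Basal, 14120 ± 168 for KO_OL and 13472 ± 1068 for KO_RL, beside 15592 ± 213 for WT_Basal, 16458 ± 3919 for WT_OL and 14735 ± 2148 for WT_RL. Since the rule did not use these values but the list was chosen with results of these data known, the sums are given with no test.

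**Figure D1:**
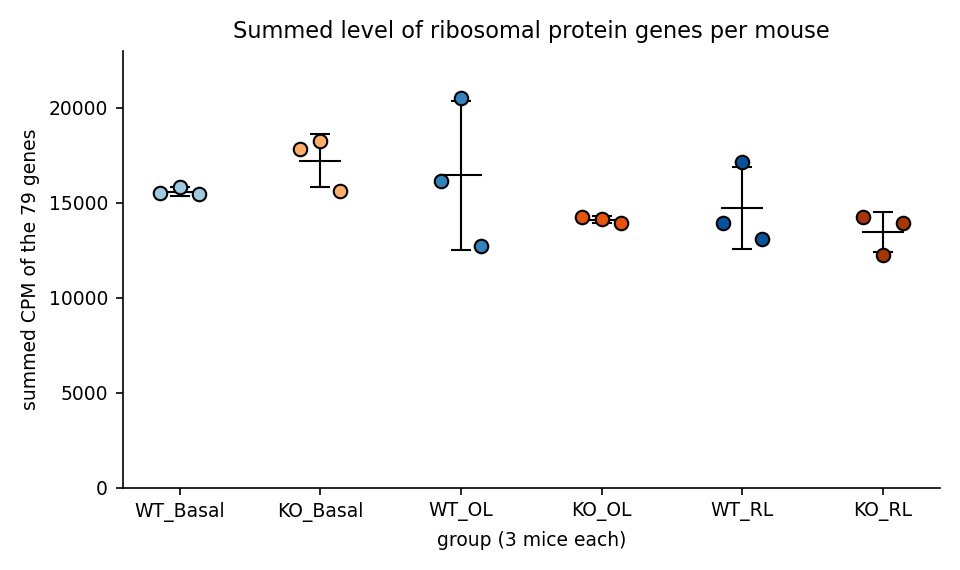
Summed level of the 79 ribosomal protein genes in CPM (y axis, starting at 0) in each of the 18 libraries, by group (x axis), with each point a mouse and the bar the group mean and SD. The KO_OL and KO_RL mice lie between 12253 and 14257 CPM, below the lowest KO_Basal mouse at 15626, while the WT_OL mice spread from 12707 to 20526.

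Single libraries stood apart in most members at once. The second WT_OL mouse was the highest of all 18 for 59 members and lay above the gene's own mean for all 79. The third WT_OL mouse was the lowest of all 18 for 26 members and lay below the mean for 77. The second KO_RL mouse was the lowest of all 18 for 40 members. In KO_Basal, the third mouse was the lowest of its group for 70 members, and in WT_RL the second was the highest of its group for 76.

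**Figure D2:**
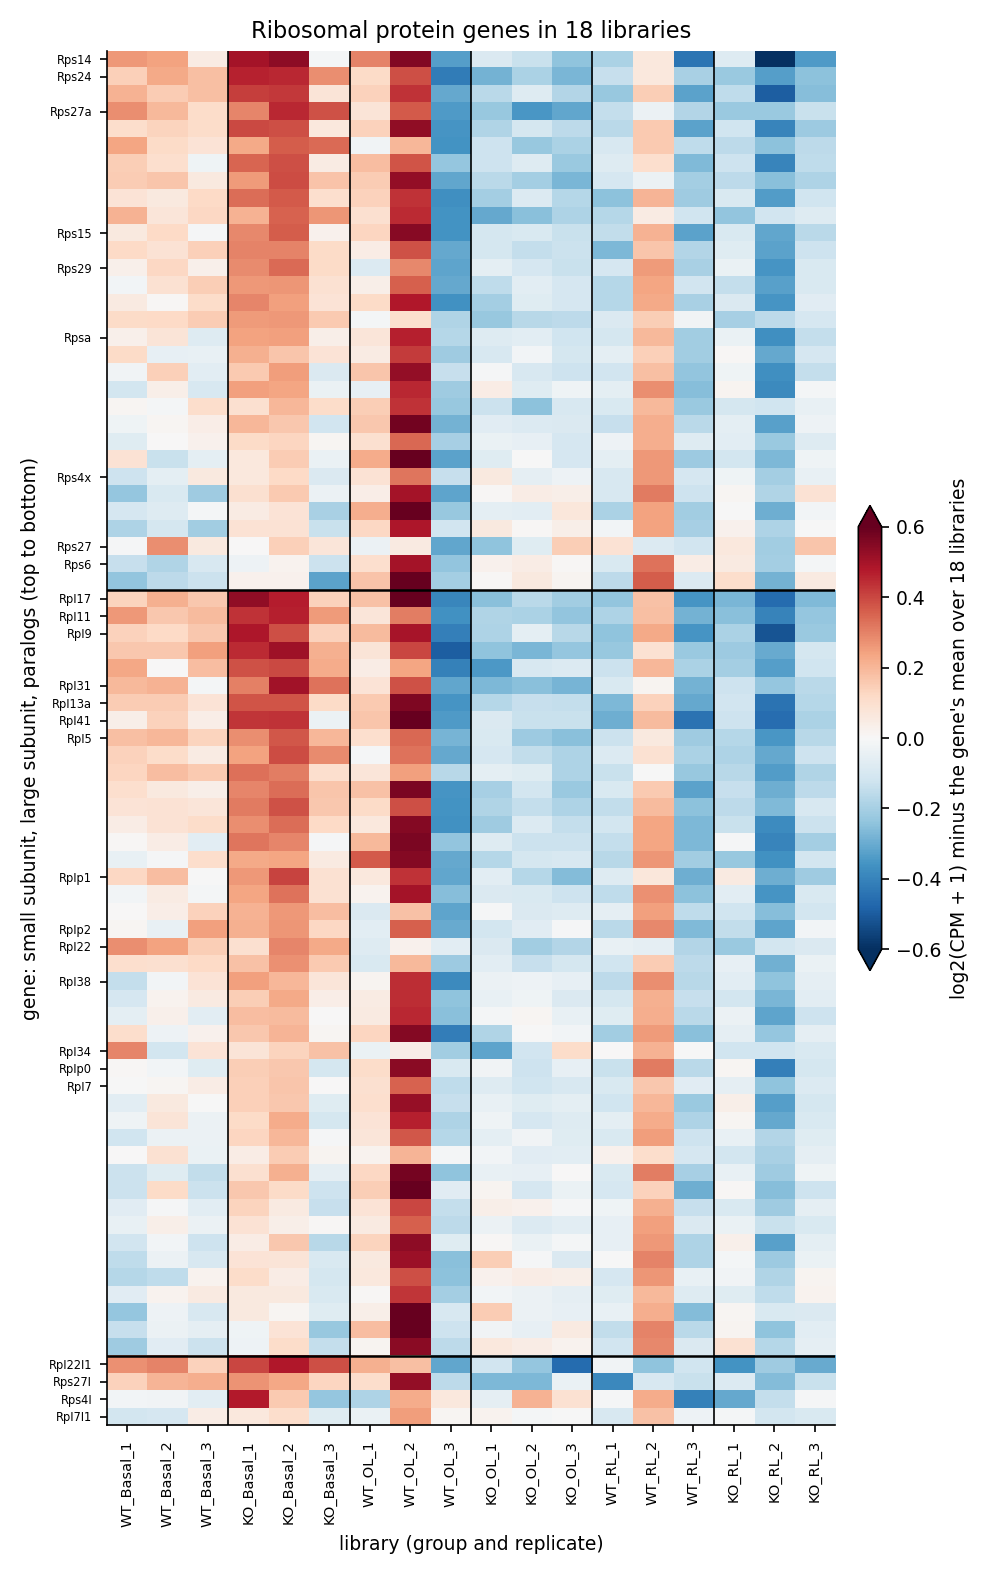
Deviation of each member (rows, grouped as small subunit, large subunit and paralogs, with the main genes of the text labelled) from its own mean over the 18 libraries, in log2 units (color), for each library (columns, by group). Whole columns stand out: the second WT_OL mouse is above the mean for all 79 genes and the third WT_OL mouse below it for 77.

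Original learning in WT mice was compared with no training first. Here 1 of the 79 genes passed the test (limma over all 15329 genes, Benjamini-Hochberg adjusted p under 0.05), *Rpl22*, which fell. This is 1.27% of the members, where 5.62% of all genes tested were called lower and 3.88% higher. The median log2 change of the members was 0.05 where that of all genes lay near 0, with 46 members above 0 and 33 below. Among the members with a higher mean, *Rps2*, a small-subunit protein named here after its values were seen, differed by 0.33 and did not pass (adjusted p = 0.114, limma). The direction of the median rests on 1 mouse: it was -0.15 without the second WT_OL mouse, and 0.23 without the third, when 11 members (13.9%) were called higher and 1 lower, against 6.15% and 10.1% of all genes.

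*Rpl22* encodes an RNA-binding protein at the outer surface of the large subunit that is not essential, and lies at chr4:152325742-152334071 on the plus strand (GENCODE M21, GRCm38). Its level was 129, 125 and 118 CPM in WT_Basal, and 100.4, 107.9 and 101.4 CPM in WT_OL. In KO mice it was 113, 130.0 and 124 CPM in KO_Basal and 99.9, 91.7 and 93.9 CPM in KO_OL. After reversal it was 103, 102 and 93.8 CPM in WT_RL and 90.6, 98.2 and 99.7 CPM in KO_RL. All 12 trained mice lay below all 6 untrained mice, with no overlap. Against the untrained mice of the genotype, the log2 change in WT mice was -0.26 ± 0.07 (SE, adjusted p = 0.0242, limma) after original and -0.31 ± 0.07 (adjusted p = 0.00634) after reversal learning. In KO mice it was -0.36 ± 0.07 (adjusted p = 0.00162, limma) and -0.34 ± 0.07 (adjusted p = 0.00214). It was the only member called in all 4 of these comparisons. The change after original learning did not differ detectably between genotypes (KO minus WT, -0.10 ± 0.10, adjusted p = 0.625, limma). The call in WT_OL was lost without the first or second WT_Basal mouse or the first WT_OL mouse.

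Original learning in KO mice was followed by lower levels of 20 members and a higher level of none (limma). They were 7 of 31 small-subunit genes, 11 of 44 large-subunit genes and 2 of the 4 paralogs. The share was 25.3%, where 12.3% of all genes were called lower and 11.2% higher. The median log2 change over the members was -0.28, a ratio of 0.826 on the CPM + 1 scale, against -0.01 over all genes, and 70 of 79 changes were below 0. In 51 members (64.6%) all 3 KO_OL mice lay below all 3 KO_Basal mice, which was so for 24.6% of all genes. Without the first KO_Basal mouse the count was 13 (16.5%, where 8.38% of all genes were then called lower), and without the second it was 12 (15.2%, against 8.77%). Of the 20 calls, 12 held when any 1 of the 6 mice was left out.

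*Rpl22l1*, the paralog of *Rpl22* that can take its place in the ribosome and whose mRNA the Rpl22 protein can repress, fell most (chr3:28805436-28807424, plus strand, with 7.99% of its exon bases overlapped on the other strand by *Gm33051*). Its level was 77.5, 81.9 and 76.6 CPM in KO_Basal and 53.9, 49.6 and 42.1 CPM in KO_OL. In WT mice it was 70.8, 72.0 and 64.3 CPM without training and 67.8, 66.4 and 46.9 CPM after original learning. The KO groups were separate, whereas the WT groups overlapped. The log2 change was -0.69 ± 0.12 (adjusted p = 0.000717, limma) in KO and -0.21 ± 0.12 (adjusted p = 0.284, limma) in WT, and the difference between these changes was -0.48 ± 0.17 (adjusted p = 0.388, limma).

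*Rps27a* encodes ubiquitin fused to a small-subunit protein, and so supplies both (chr11:29545846-29548109, minus strand, with 8.11% of its exon bases overlapped on the other strand by *Clhc1*). It was at 225, 251 and 239 CPM in KO_Basal and at 156, 144 and 148 CPM in KO_OL. In WT it was at 222, 209.9 and 198 CPM without training and at 193, 237 and 145 CPM after it. The KO mice did not overlap, and the WT_OL mice spread beyond the untrained ones on both sides. The change in KO was -0.67 ± 0.12 (adjusted p = 0.00104, limma).

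*Rps24*, a small-subunit protein that is mutated in some patients with Diamond-Blackfan anemia (chr14:24487125-24496959, plus strand), was at 441, 439.6 and 389 CPM in KO_Basal and at 264, 281 and 265 CPM in KO_OL. Its WT levels were 354, 376 and 363 CPM without training and 347, 419 and 239 CPM with it. The KO groups were again separate and the WT groups were not. The change in KO was -0.64 ± 0.14 (adjusted p = 0.00356, limma).

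*Rpl31*, a large-subunit protein near the exit of the peptide tunnel (chr1:39367842-39371911, plus strand), was at 198, 228 and 201 CPM in KO_Basal and at 133, 135 and 132 CPM in KO_OL. All 3 KO_OL mice lay below all KO_Basal mice, at a log2 change of -0.64 ± 0.13 (adjusted p = 0.00212, limma). A gene on the other strand, *Tbc1d8*, overlaps 25.3% of its exon bases, and 63.2% of its windows recur elsewhere.

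Of the pair that binds 5S ribosomal RNA and, outside the ribosome, the p53 regulator Mdm2, *Rpl11* (chr4:136028265-136053428, minus strand) was at 234, 239 and 206 CPM in KO_Basal and at 152, 152 and 146 CPM in KO_OL. The groups were separate, at a change of -0.59 ± 0.14 (adjusted p = 0.00559, limma). Its partner *Rpl5* was at 279, 298 and 264 CPM in KO_Basal and at 216, 197 and 193 CPM in KO_OL, a change of -0.47 ± 0.12 (adjusted p = 0.00946, limma). *Rpl5* shares 91.1% of its windows with other annotated genes, and *Fam69a* overlaps 24.3% of its exon bases on the other strand.

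The other members that fell in KO_OL included *Rps7*, *Rps12*, *Rps15a* and *Rps23* of the small subunit, *Rpl15*, *Rpl17*, *Rpl23*, *Rpl27a*, *Rpl35a*, *Rpl36a* and *Rpl39* of the large subunit, and *Rps27l*. Their changes ranged from -0.64 for *Rpl35a* to -0.31 for *Rpl23*. The call of *Rpl23* was lost whichever of the 6 mice was left out, and those of *Rpl17*, *Rpl27a*, *Rps7* and *Rps27l* in 5 of the 6 cases.

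**Figure D3:**
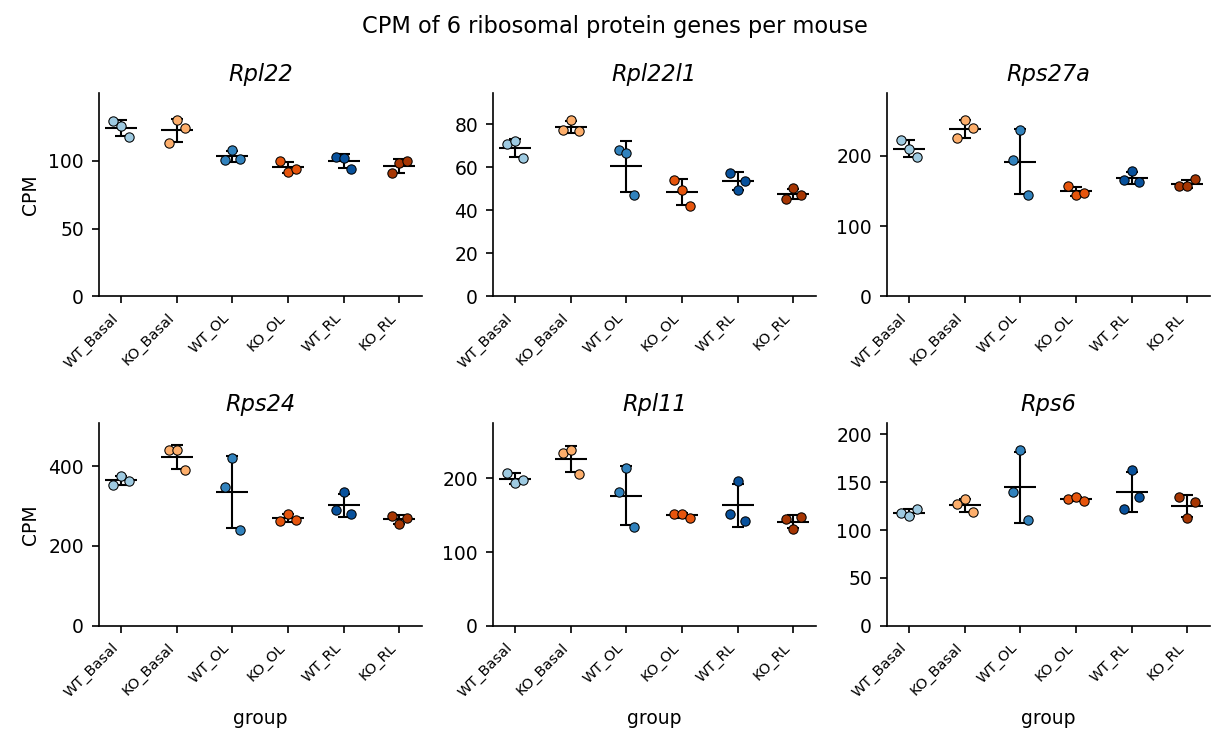
Level in CPM (y axes, each starting at 0) of *Rpl22*, *Rpl22l1*, *Rps27a*, *Rps24*, *Rpl11* and *Rps6* in each mouse, by group, with the group mean and SD (n = 3). *Rpl22* is lower in all 12 trained mice, the next 4 are lower in the KO_OL and KO_RL mice than in KO_Basal mice, and *Rps6* is not.

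Several members stayed without a call after training. *Rps6*, the small-subunit protein phosphorylated by S6 kinases in active neurons (chr4:86854660-86857412, minus strand), was at 118, 115 and 122 CPM in WT_Basal and 127, 132 and 119 CPM in KO_Basal. It was at 139, 184 and 110.1 CPM in WT_OL and 132, 134 and 131 CPM in KO_OL. After reversal it was at 122, 163 and 134 CPM in WT_RL and 135, 113 and 129 CPM in KO_RL. Trained and untrained mice overlapped except in WT_RL, where the lowest mouse, at 122.0 CPM, was just above the highest WT_Basal mouse at 121.5 CPM. The log2 differences from untrained mice were 0.26 and 0.23 in WT_OL and WT_RL and 0.07 and -0.01 in KO_OL and KO_RL, the lowest adjusted p being 0.253 (limma).

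The stalk proteins *Rplp0*, *Rplp1* and *Rplp2* had log2 differences of -0.13, -0.42 and -0.26 in KO_OL and of -0.24, -0.40 and -0.36 in KO_RL, and none passed (limma, lowest adjusted p = 0.0579). *Rpsa*, which is also known as a laminin receptor, differed by -0.26 and -0.36, and *Rpl41*, the shortest ribosomal protein, by -0.39 and -0.53, again without a call. *Rpl38*, known for its part in the translation of Hox mRNAs, differed by -0.21 and -0.29 (adjusted p = 0.343 and 0.184, limma).

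Reversal learning in WT mice was compared with no training and with original learning. Against WT_Basal, 2 members fell and none rose (limma), *Rpl22* and *Rpl22l1*, or 2.53% of the members, where 7.42% of all genes were called lower and 8.28% higher. The median was -0.07, with 24 members above 0. It was -0.20 without the second WT_RL mouse and 0.02 without the third. In 11 members (13.9%) all 3 WT_RL mice lay below all 3 WT_Basal mice, which was so for 16.7% of all genes. *Rpl22l1* was at 57.5, 49.2 and 53.6 CPM in WT_RL, below all WT_Basal mice, at a change of -0.36 ± 0.12 (adjusted p = 0.0461, limma), a call that was lost when any 1 of the 6 mice was left out. Against WT_OL, no member passed (limma), where 0.261% of all genes did. At an unadjusted p under 0.05, 2 members were lower and none higher, where 980 of all 15329 genes were lower and 1527 higher. Limma-voom called no member. The median was -0.13. Without the third WT_OL mouse, 21 members (26.6%) were called lower in WT_RL than in WT_OL, against 4% of all genes, at a median of -0.32. Without the second, none was called and the median was 0.04, with 54 members above 0. Without the second WT_RL mouse it was -0.24.

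Reversal learning in KO mice, compared with KO_Basal, was followed by lower levels of 30 members and a higher level of none (limma): 14 of 31 small-subunit genes, 15 of 44 large-subunit genes and 1 of 4 paralogs. The share was 38.0%, where 12% of all genes were called lower and 11.6% higher. The median was -0.34, and 78 of the 79 changes were below 0. All 3 KO_RL mice lay below all 3 KO_Basal mice in 53 members (67.1%), against 22.6% of all genes. Without the first or the second KO_Basal mouse the count was 13 (16.5%), where 7.37% and 7.76% of all genes were called lower. Without the second KO_RL mouse it was 14 (17.7%, against 9.44%). Of the 30 calls, 12 held when any 1 of the 6 mice was left out, and those of *Rpl12* and *Rps12* held in no such case.

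*Rpl17*, a large-subunit protein at the exit of the peptide tunnel, fell most. It was at 408, 392 and 311 CPM in KO_Basal and at 233, 205 and 235 CPM in KO_RL, with no overlap and a change of -0.72 ± 0.18 (adjusted p = 0.0107, limma). *Rpl22l1* was at 45.3, 50.2 and 47.2 CPM in KO_RL, each below the lowest KO_Basal mouse, at a change of -0.71 ± 0.12 (adjusted p = 0.0006, limma).

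*Rps14*, whose loss underlies the anemia of human 5q deletion, was at 459, 471 and 321 CPM in KO_Basal and at 307, 207 and 256 CPM in KO_RL. The highest KO_RL mouse was close below the lowest KO_Basal mouse, and the change was -0.70 ± 0.20 (adjusted p = 0.02, limma). The call was lost without the first or second KO_Basal mouse and without the second or the third KO_RL mouse, and that of *Rpl17* without the first KO_Basal mouse. *Rps14*, *Rpl17* and *Rpl41* were the members that varied most over the 18 libraries (SD 0.33 to 0.35 log2 units).

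*Rpl11* was at 145, 131 and 147 CPM in KO_RL (change -0.68 ± 0.14, adjusted p = 0.00221, limma), *Rps24* at 275, 255 and 270.3 CPM (change -0.66 ± 0.14, adjusted p = 0.00297, limma) and *Rps27a* at 157, 157 and 167 CPM (change -0.57 ± 0.12, adjusted p = 0.00326, limma). Each KO_RL mouse lay below the KO_Basal mice in all 3 genes. *Rpl13a*, known as a regulator of inflammatory mRNAs when released from the ribosome, fell by 0.53 (adjusted p = 0.0329, limma), with 35.4% of its exon bases overlapped by another gene on the same strand. The members that fell in KO_RL but were not called in KO_OL included *Rpl9*, *Rpl12*, *Rpl13a*, *Rpl21*, *Rps3*, *Rps9*, *Rps10*, *Rps14*, *Rps18* and *Rps29*. Another gene on the same strand overlaps 20.6% of the exon bases of *Rps10*.

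The KO_OL and KO_RL comparisons share the KO_Basal mice, so their overlap is no second observation. By count, 19 members were called in both, which is 95.0% of the 20 and 63.3% of the 30, and 48 were called in neither. KO_RL against KO_OL, which does not use the KO_Basal mice, called no member (limma), where 0.0196% of all genes were called. No member had an unadjusted p under 0.05 in either direction, where 227 of all 15329 genes were lower and 510 higher. Limma-voom called no member, and the median was -0.07, or -0.00 without the second KO_RL mouse.

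**Figure D4:**
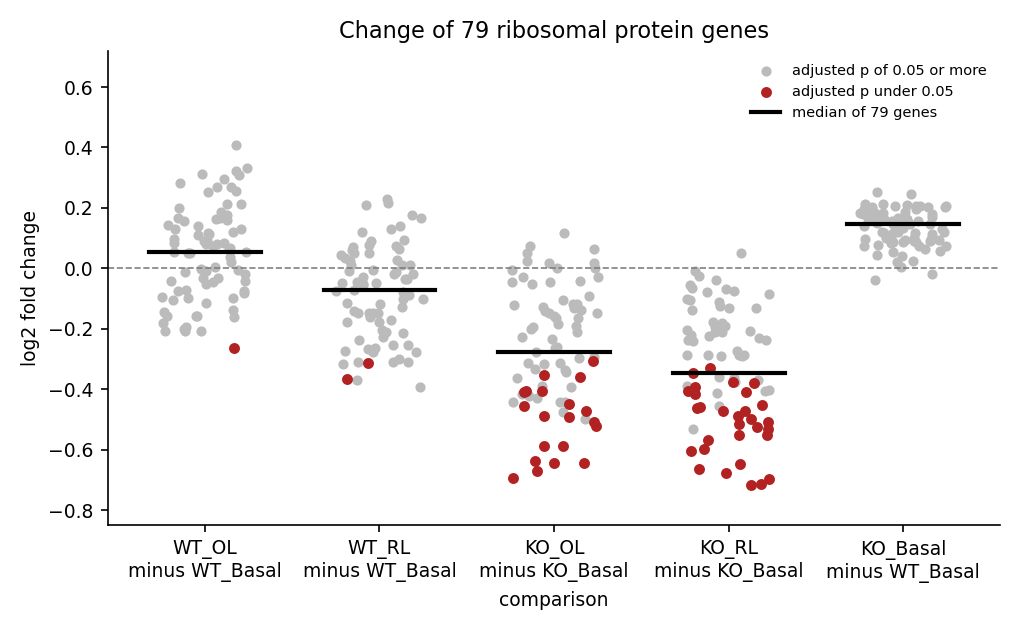
Log2 change of each member (points, in log2 units on the CPM + 1 scale) in the 4 comparisons of trained with untrained mice and in KO_Basal against WT_Basal, with calls at adjusted p under 0.05 marked and the median drawn. The medians are -0.28 in KO_OL and -0.34 in KO_RL against KO_Basal, and 0.05 in WT_OL and -0.07 in WT_RL against WT_Basal.

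Genotypes were then compared at each stage. Without training no member passed (limma), where 0.0196% of all genes did. At an unadjusted p under 0.05 there was no member in either direction, where 287 of all 15329 genes were lower and 326 higher. Limma-voom called no member. The mean was higher in KO_Basal for 77 of the 79 genes, with a median of 0.15, and in 17 genes (21.5%) all 3 KO_Basal mice lay above all 3 WT_Basal mice, which was so for 7.05% of all genes. The first and second KO_Basal mice carried this difference in the sum, at 17815 and 18227 CPM, and the third, at 15626 CPM, lay within the WT_Basal range of 15448 to 15837 CPM. These KO_Basal mice are also the reference for both KO training comparisons.

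After original learning no member passed between KO_OL and WT_OL (limma), where 0.0652% of all genes did. The median was -0.20, and 7 members were lower at an unadjusted p under 0.05 and none higher. Of all 15329 genes, 1237 were lower and 1527 higher at that threshold. The lowest adjusted p among the members was 0.200 (*Rps27a*, limma), and limma-voom called none. The count of members called turned on which WT_OL mouse was left out. The third WT_OL library is also the one that mapped at a rate close to those of KO_OL. Without the third, 34 members (43.0%) were called lower in KO_OL, against 5.70% of all genes, at a median of -0.36. Without the second, none was called and the median was -0.01. After reversal no member passed between KO_RL and WT_RL (limma), and neither did any of all genes (0%). The median was -0.11, with 1 member lower at an unadjusted p under 0.05 and none by limma-voom. Of all 15329 genes, 377 were lower and 379 higher at that threshold. The members' median was 0.00 without the second WT_RL mouse, with 42 members above 0, and -0.05 without the second KO_RL mouse.

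The difference between the genotypes in the change after original learning was tested as an interaction. No member passed (limma), nor did any of all genes (0%). The median of the difference was -0.31, with 78 of 79 below 0, 11 members lower at an unadjusted p under 0.05, and none called by limma-voom. Of all 15329 genes, 988 were lower and 920 higher at that threshold. The lowest adjusted p among the members was 0.388 (limma). Hence the larger number of calls in KO than in WT mice is not shown to be a difference between genotypes. Without the third WT_OL mouse 19 members (24.1%) were called lower, against 2.19% of all genes, at a median of -0.50, and without the second WT_OL mouse the median was -0.15. For the change from original to reversal learning, no member and none of all genes (0%) differed between genotypes (limma), and limma-voom called none. No member had an unadjusted p under 0.05, where 551 of all 15329 genes were lower and 673 higher. The members' median was 0.07. It was -0.10 without the second and 0.23 without the third WT_OL mouse, and 0.19 without the second and -0.01 without the third WT_RL mouse.

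Ribosomal protein mRNAs are short, and the libraries differed in how the signal depended on transcript length. The members' median length was 887 bases, against 3025 bases over all genes, at a similar GC content of 51.5% and 50.4%. For each library, the slope of the log2 deviation from a gene's mean on the log2 transcript length was taken over the genes that are not members, so that a negative slope means relatively more signal from short transcripts. It was 0.00302, -0.0347 and -0.0289 log2 units per doubling of length in WT_Basal and -0.0698, -0.0924 and -0.00611 in KO_Basal. It was -0.0268, -0.198 and 0.0719 in WT_OL and 0.0138, 0.0333 and 0.0371 in KO_OL. After reversal it was 0.0522, -0.0662 and 0.0926 in WT_RL and 0.0297, 0.127 and 0.0621 in KO_RL. Every KO_OL and KO_RL mouse had a higher slope than every KO_Basal mouse, which is the order of the members' sums turned round.

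Over the 18 libraries the sum of the members and this slope had a Pearson correlation of -0.982 and a Spearman correlation of -0.979, and of -0.986 (Pearson) with the group means removed. Without the second WT_OL and second KO_RL mice, the libraries farthest from the median slope, Pearson's value was -0.970 over 16 libraries. This is a description, since both measures come from the same libraries and the same normalization. With the number of reads the sum had a Pearson correlation of -0.368 and a Spearman correlation of -0.525, and of -0.0333 (Pearson) with the group means removed.

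**Figure D5:**
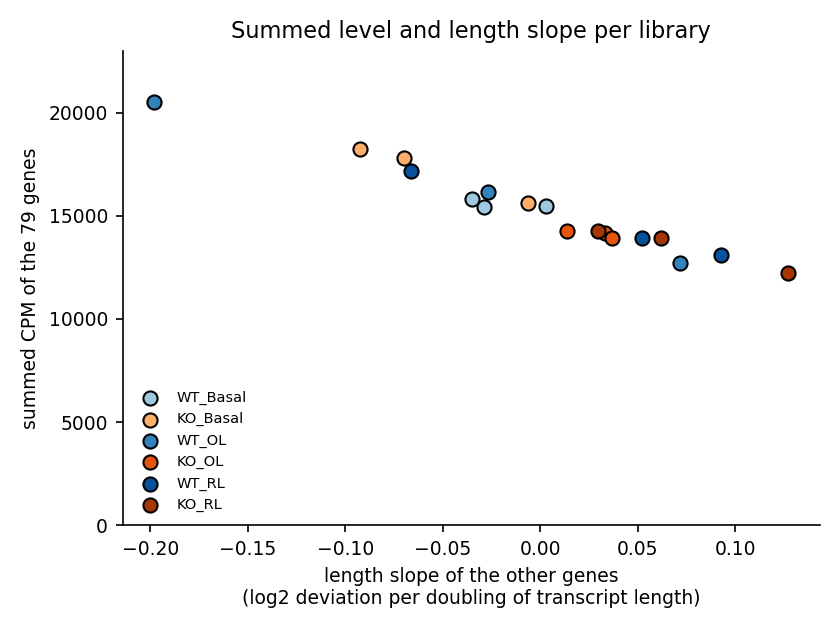
Summed level of the 79 genes in CPM (y axis) against the slope of signal on transcript length among the other genes, in log2 units per doubling of length (x axis), with each point a library colored by group. The points fall along a line from the second WT_OL mouse at a slope of -0.198 and 20526 CPM to the second KO_RL mouse at 0.127 and 12253 CPM.

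When each library was corrected for transcript length and GC content by a smooth fit over all genes, the medians shrank to -0.12 in KO_OL and -0.13 in KO_RL against KO_Basal, and to 0.00 in WT_RL against WT_Basal, while that in WT_OL was 0.06. The median of KO_OL against WT_OL became -0.08, and that of the difference between genotypes in the change after original learning became -0.15. In KO_OL, 20 members (25.3%, against 6.87% of all genes) were then called lower and 2 (2.53%, against 6.01%) higher. The 2 higher were *Rpl10* (0.24) and *Rps6* (0.25). Of the 20 lower, 10 were among those called without the correction. In KO_RL, 19 (24.1%, against 5.46%) were called lower, 17 of them among the 30, and none higher. In WT_RL against WT_Basal 5 (6.33%, against 4.42%) were called higher, *Rps6* among them at 0.35, and 1 (1.27%, against 2.97%) lower. In WT_OL *Rps6* was the only member called, at 0.28 (adjusted p = 0.0432, limma). This is 1.27% of the members, where 1.54% of all genes were called higher and 1.26% lower.

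The named genes kept their falls in KO to different degrees under this correction. *Rpl11* stayed at -0.46 in KO_OL (adjusted p = 0.00083, limma) and at -0.49 in KO_RL (adjusted p = 0.0006, limma). *Rps24* was at -0.44 and -0.43, and *Rps27a* at -0.47 and -0.31. *Rpl22* was at -0.31 in KO_OL (adjusted p = 0.0110, limma), at -0.28 in KO_RL (adjusted p = 0.0219, limma), and at -0.24 in WT_OL, where its call was lost (adjusted p = 0.0911, limma). *Rpl22l1*, with the largest fall uncorrected, was at -0.11 in KO_OL (adjusted p = 0.504, limma) and at -0.11 in KO_RL (adjusted p = 0.531, limma), and its difference in WT_RL turned to 0.10. Of the 11 alternative fits that left out no compared mouse, this was the only one to lose its calls in KO_OL and KO_RL. Corrections for length alone and for GC content alone kept them. *Rpl5* was at -0.18 in KO_OL (adjusted p = 0.313, limma) and at -0.22 in KO_RL (adjusted p = 0.225, limma), so that both its calls were lost, as were those of *Rpl23* (-0.05 in KO_OL, adjusted p = 0.654, limma) and *Rps27l* (-0.03 in KO_OL, adjusted p = 0.846, limma).

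Within the family, the members called lower had the lower GC content. Its median was 46.6% in those called in KO_OL and 52.8% in the others, and 49.1% and 52.5% in KO_RL. Over the 77 members with a mean log2 level over 2, the correlation between log2 change and GC content was 0.31 in KO_OL, 0.26 in KO_RL and 0.38 in WT_OL. Over all 12419 genes above that level it was 0.41, 0.36 and 0.61, of the same sign. Genes in 1 library are not independent, and no test was made. A pyrimidine run near the start was found in 8 of 17 members called in KO_OL and 16 of 42 not called, and in 12 of 23 and 12 of 36 for KO_RL.

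Of 7 paralog pairs looked for, 4 had both genes listed. Per kilobase, *Rpl22l1* at 108 exceeded *Rpl22* at 52.1 CPM per kilobase, whereas *Rpl7l1*, at 20.5, was below *Rpl7* at 256, and *Rps4l*, at 26.8, below *Rps4x* at 259.7. In mean CPM *Rpl22l1*, at 59.6, was below *Rpl22* at 107. Their order thus depends on the transcripts chosen, of 552 and 2051 bases. *Rpl7* and *Rpl7l1* had log2 differences of -0.20 and -0.03 in KO_OL, and *Rps4x* and *Rps4l* of -0.04 and -0.05, none of which passed (limma). *Rps27l*, whose gene responds to p53 in other tissues, was at 14.0, 13.6 and 12.6 CPM in KO_Basal and at 9.32, 9.33 and 11.1 CPM in KO_OL. The groups were separate, at a change of -0.40 ± 0.13 (adjusted p = 0.0393, limma), and with its partner *Rps27* hardly counted the pair could not be compared.

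Other genes of the pathway were taken from fixed lists. The ribosomal proteins outside the rule (4 listed, *Fau*, *Rpl36al* and *Gnb2l1*, an older name of *Rack1*, among them) had no call in any of the 4 training comparisons, with medians of 0.16 and -0.05 in WT_OL and WT_RL and of -0.17 and -0.25 in KO_OL and KO_RL. Of 15 translation factors and partners whose mRNAs also carry TOP tracts, 2 rose in each training comparison (limma), while 1 fell in WT_OL and 2 in WT_RL, and 4 in KO_OL and 5 in KO_RL. *Eef2*, which moves the ribosome along the mRNA, rose in all 4, by 0.41 and 0.40 in WT_OL and WT_RL and by 0.33 and 0.30 in KO_OL and KO_RL. *Eef1b2*, an exchange factor of elongation factor 1, fell by 0.40 in KO_OL and by 0.49 in KO_RL (adjusted p = 0.0224 and 0.0068, limma). *Npm1*, a nucleolar chaperone, fell in all 4, by 0.37 and 0.21 in WT and by 0.40 and 0.42 in KO mice, original learning first.

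Of 34 listed genes for ribosome assembly and ribosomal RNA synthesis, none rose and 2 fell in WT_OL, 4 rose and 1 fell in WT_RL, 7 rose and 3 fell in KO_OL, and 6 rose and 5 fell in KO_RL (limma). Beside these counts and those of the next list stand the shares of all genes given above. *Gar1*, of the particles that place pseudouridine in ribosomal RNA, fell in all 4, and *Rrn3*, an initiation factor of RNA polymerase I, rose in KO_OL, WT_RL and KO_RL. Of 22 genes of mTOR signaling and of the control of ribosomal protein mRNAs, 1 rose and 7 fell in WT_OL, 3 and 6 in WT_RL, 6 and 8 in KO_OL, and 6 and 5 in KO_RL. *Eif4e*, the cap-binding protein, fell in all 4, by 0.29 and 0.27 in WT and 0.40 and 0.41 in KO mice, and *Eif4ebp2*, its main repressor in brain, rose in all 4, by 0.30 and 0.34 in WT and 0.35 and 0.41 in KO mice. *Mtor* and *Larp1* rose in KO_OL by 0.43 and 0.35 and in KO_RL by 0.48 and 0.34. All changes of these pathway genes are given without the length and GC correction. Under it, the calls over all genes went from 1457 to 429 in WT_OL and from 2407 to 1132 in WT_RL. In KO_OL they went from 3600 to 1975, and in KO_RL from 3612 to 1587.

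Markers of some other cells also moved with the KO training comparisons. The 12 choroid plexus markers summed to 223 to 1141 CPM in KO_Basal, to 3659 to 7014 CPM in KO_OL and to 2111 to 7731 CPM in KO_RL, and 12 were called higher in KO_OL and 10 in KO_RL (limma). In WT the ranges overlapped, at 1453 to 6507 CPM in WT_Basal, 3163 to 4931 CPM in WT_OL and 215 to 12809 CPM in WT_RL, with no marker called by limma. None of these markers was at 0 in a KO group. Among the other lists, in KO_OL and KO_RL respectively, 1 and 2 of 12 hippocampal neuron markers were called higher and 1 and 1 lower, 0 and 0 of 10 oligodendrocyte markers higher and 1 and 1 lower, and 1 and 1 of 8 astrocyte markers higher and 1 and 1 lower. Of 9 microglial markers 3 and 4 were called lower, and of 8 endothelial markers 2 and 2. No marker of hypothalamus and pituitary (10) or of red blood cells (3 listed) was called in these comparisons. The part of these cells in the members' changes was not tested.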

How the data were processed

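Poly(A) RNA of the hippocampus was sequenced in paired reads, 1 library per mouse. The authors aligned reads to mm10 with STAR 2.5.1, counted them per gene with its count module, applied TMM normalization in edgeR 3.12.1 (R 3.3.0) and deposited log2 CPM values. The gene annotation is not given in the sources used here. The labels name a stranded kit and the methods an unstranded one, so overlaps with other genes are given for the main genes described. The values are log2(CPM + 1): with that constant, 100% were whole multiples of 1 read per library (tolerance 0.1), which gave the reads, 29248557 to 37915576 per library.

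Groups came from the labels. Genes above 0 in at least 3 libraries (15329) were fitted with limma 3.58.1 (R 4.3.3), with 1 mean per group over all 18 libraries, a variance trend and Benjamini-Hochberg adjustment over all genes. All fold changes are on the log2(CPM + 1) scale, which understates those of low genes. The fit was checked on simulated data. As an alternative, limma-voom was run on the recovered reads, and called 3491 of all genes in KO_OL and 3495 in KO_RL against KO_Basal, where the main fit called 3600 and 3612. Replicates are separate mice by the study's account.

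Positions, lengths and GC content came from GENCODE M21 (longest principal transcript), found for 99.3% of genes, and start-site sequences from RefSeq GRCm38.p6.

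Members, lists and alternatives were chosen with earlier results of these data known. Genes named are the up to 6 (WT_OL) or 4 (other comparisons) largest called rises and falls whose mice do not overlap, the paralog pairs, the 5 most and 5 least abundant per kilobase, the 3 most variable, and members with a role of their own. Lists counted were other ribosomal proteins, translation factors, ribosome assembly, mTOR control, and markers of hippocampal neurons, choroid plexus, hypothalamus and pituitary, oligodendrocytes, astrocytes, microglia, endothelial cells and red blood cells. Values of a few single genes are not reported here.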

Additional observations from a re-analysis of the deposited data

How the results depend on the processing

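The medians in KO_OL and KO_RL against KO_Basal stayed below 0 under every setting tried, while counts of members called moved by over 1.5 times as follows. With only the compared libraries in the fit, the count was 46 in KO_OL and 49 in KO_RL against KO_Basal, and 0 in WT_OL against WT_Basal. The 46 and 49 were all lower (58.2% and 62.0%), where 16.8% and 13.7% of all genes were called lower. In WT_OL 0.150% of all genes were then called higher and 0.392% lower. With the length and GC correction the count was 19 in KO_RL and 6 in WT_RL, at the shares given above. With length alone, chosen after seeing the data as was GC alone, it was 10 in WT_OL and 9 in WT_RL, and with GC alone 0 and 1. In WT_RL the count was 1 with log2 values under 2 raised to 2 and 1 without the variance trend. Each was lower (1.27%, against 6.71% and 7.52% of all genes). *Rpl22l1* in WT_RL reversed to 0.10 under the length and GC correction.

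Leaving out each mouse in turn gave 0 to 12 calls in WT_OL, 12 to 20 in KO_OL, 1 in WT_RL, and 13 to 29 in KO_RL, each against untrained mice, 0 to 21 for WT_RL against WT_OL, 0 to 34 for KO_OL against WT_OL, and 0 to 19 for the interaction after original learning. In KO_OL the counts were 15.2% to 25.3% of the members, against 8.32% to 10.1% of all genes called lower. In KO_RL they were 16.5% to 36.7%, against 7.37% to 10.9%. The mice that decide these counts are named in the report, most with the share of all genes beside them.

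Same-numbered mice did not deviate together throughout (27 pairs, r from -0.67 to 0.62, 5 over 0.1), and in no comparison were all pairs over 0.1. With 3 mice a group, this cannot exclude that the numbers pair them, and the main fit used no pairing. With the replicate block the counts were 26 in KO_OL, 34 in KO_RL, 3 in WT_RL and 1 in WT_OL. The median in WT_RL against WT_Basal ranged from -0.12 to 0.03 over the other settings and from -0.20 to 0.02 with a mouse left out.

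With 3 mice a group, and a sum that ranged from 12707 to 20526 CPM within WT_OL, differences of the members between genotypes were not detectable here.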

Other observations

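Some regulators outside the family moved in the same direction in both genotypes. *Yy1*, a transcription factor whose letters occur in some ribosomal protein promoters, fell in all 4 training comparisons, by 0.43 and 0.30 in WT_OL and WT_RL and by 0.33 and 0.35 in KO_OL and KO_RL on the log2 scale (limma, called in each). *Cnbp*, a zinc-finger protein that binds pyrimidine-tract mRNAs, was called lower in all 4 as well. The pairs of comparisons in a genotype share their untrained mice. These changes are given without the length and GC correction.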
